A study of Danio rerio with 4 samples.

Results

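Glutamate receptor genes of the adult zebrafish brain were followed across 4 RNA sequencing libraries, 1 per group. The members are the 39 genes, of 32520 in the deposited table, whose symbol is that of an AMPA (gria), kainate (grik), NMDA (grin1 to grin3) or metabotropic (grm) glutamate receptor subunit. They comprise 8 AMPA, 5 kainate, 13 NMDA and 13 metabotropic genes, of which 4 belong to metabotropic group I, 3 to group II and 6 to group III. All 39 are annotated as protein coding, lie on 20 chromosomes and had counts in every library, and 37 reached a mean of 1 CPM (a count put on a common library size with TMM factors). The other two, grik1b and grm5b, are given by their counts. The groups were wild-type zebrafish (Danio rerio) brain treated with 0.1% dimethyl sulfoxide as control, and brain of the same genotype treated with butylparaben, a preservative ester, at 0.01, 0.1 or 1.0 mg/L, called the low, middle and high dose here. Dimethyl sulfoxide is named in the control's treatment label alone, and the sources used here do not give how many fish a library holds, their sex or the length of exposure. Where a control value is set against 3 values, those are of the exposed libraries in order of rising dose. The study's title speaks of chronic exposure of adult fish and concerns light sensitivity and memory.

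Glutamate is the main excitatory transmitter of the vertebrate brain. AMPA and kainate receptors are fast cation channels, and NMDA receptors are channels that pass calcium when glutamate and a co-agonist, glycine or D-serine, bind while the membrane is depolarised, a property tied to synaptic plasticity and memory. Metabotropic receptors act through G proteins: group I through Gq, mostly at the postsynaptic membrane, and groups II and III through Gi, mostly at the presynaptic one. Because of the genome duplication of teleost fish, many mammalian receptor genes have a pair of zebrafish counterparts, marked by a final a or b. The table held both genes of 16 such pairs, counting GRIN2B, which carries no such letter, as the partner of grin2bb. GRIN2B is a short gene model, and whether it is a whole paralog was not analysed here. The table's description also names a kainate 3 gene that has no grik symbol, so the rule leaves it out.

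Library totals lay between 9750590 and 11099317 counts. Each group has 1 library, so no spread between fish was measured and no test between conditions could be made. The intervals given with ratios and shares are exact 95% Clopper-Pearson intervals, which cover counting error only. The control library stood apart in oocyte and egg coat markers, whose sum was 586 CPM in the control versus 13.7, 13.3 and 10.03 CPM from low to high dose over 20 symbols. Members with values at both a dose and the control are therefore also compared between doses, where that library takes no part. Pan-neuronal markers, of which 17 of 18 were in the table, summed to 8719.8 CPM in the control versus 9484, 9613 and 8850.2 CPM, and the 1 of them at 0 counts in any library was rbfox3b at 0.1 mg/L. In these whole-brain samples, fewer cells of a type and less RNA per cell cannot be told apart.

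The receptor genes with the highest levels per transcript length were the NMDA subunit genes grin1a and grin1b and the AMPA subunit genes gria2b and gria4a. In TPM, the authors' length-adjusted unit, grin1a had a mean over the 4 libraries of 217 TPM, grin1b 152, gria2b 145 and gria4a 108 TPM. Next came gria3a at 70.3, gria3b at 59.6 and gria2a at 50.2 TPM, and then the group I genes grm1a at 31.98 and grm5a at 29.1 TPM. This order rests on the lengths that the authors' counts and RPKM imply. In the control these were 888 bases for gria3a, 1244 for gria4a and 4764 for gria3b. By mean CPM gria3b, at 257, stood above gria4a, at 120, and gria3a, at 52.7. The lowest members were grm5b at 0.287, grin3ba at 0.335, grik1b at 0.482 and grm6a at 0.485 TPM. In the control the AMPA genes made up 42.6% of the summed receptor TPM and the NMDA genes 38.5%, with 5.16% for kainate, 6.33% for group I, 2.52% for group II and 4.903% for group III metabotropic genes. The neighbours in this order, AMPA and NMDA, changed places at 0.1 mg/L, where they held 40.2% and 42.4%. In counts, with no correction for length, the NMDA genes held 48.4% and the AMPA genes 30.9% in the control, so their order depends on the unit.

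**Figure D1:**
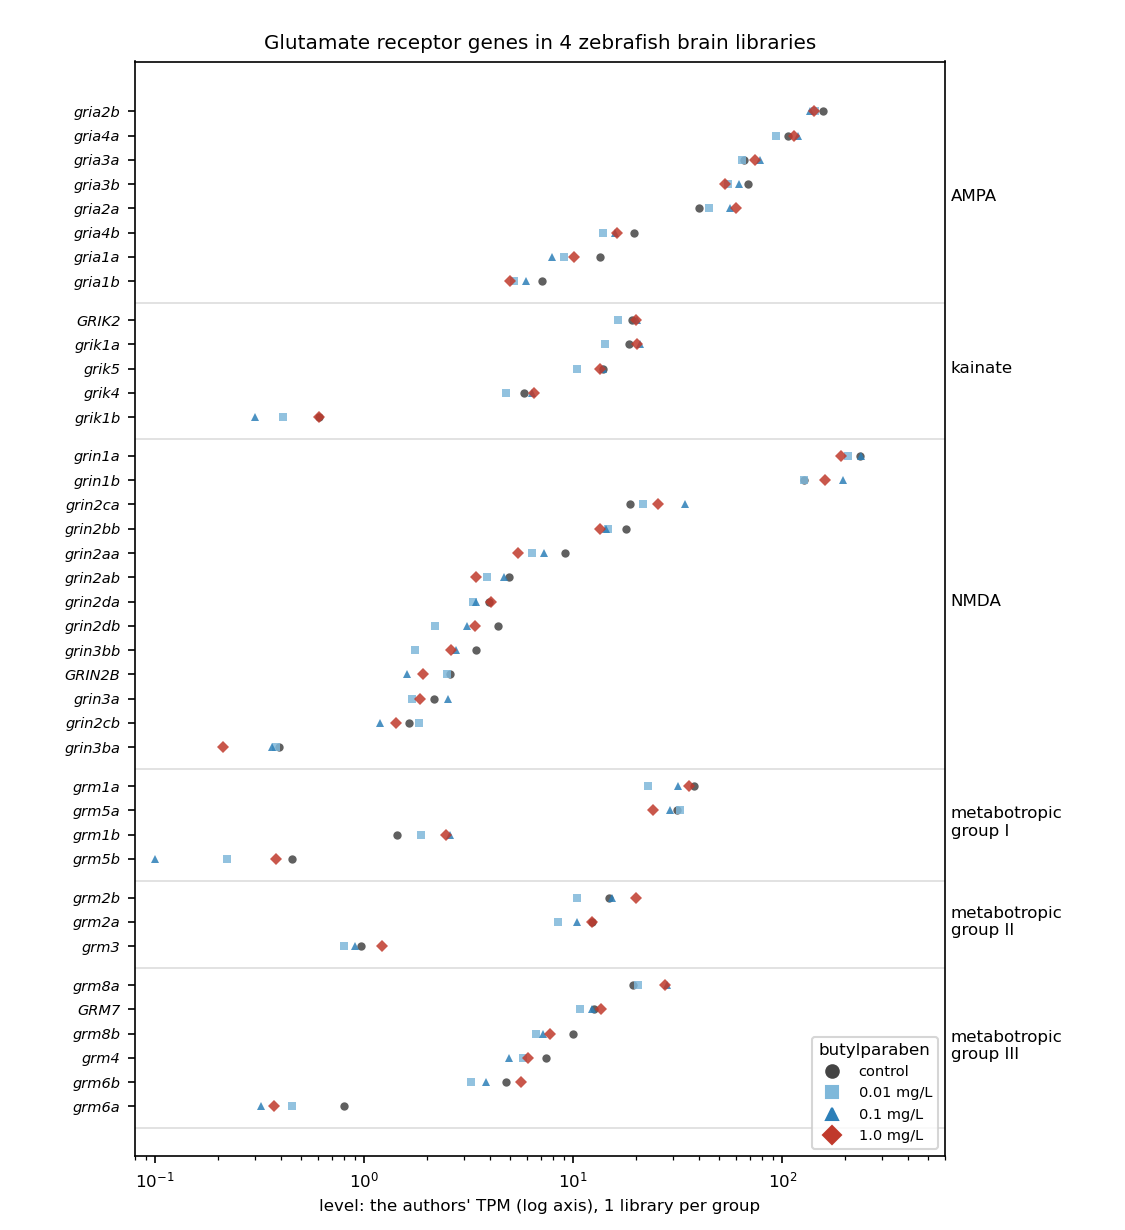
Level of each of the 39 glutamate receptor genes in TPM (log axis) in the 4 libraries, 1 marker per library, grouped by receptor subfamily and ordered by mean level within it. The grin1 genes and gria2b lie above 100 TPM in every library, while grin3ba, grik1b, grm5b and grm6a lie below 1 TPM.

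Against the control, most receptor genes differed by less than 2-fold at every dose, and more lay below the control than above it. At 0.01 mg/L 24 of 37 members were below the control and 13 above, where 51.3% of all 16524 genes of at least 1 CPM were below. At 0.1 mg/L 26 were below, against 49.6% of all genes, and at 1.0 mg/L also 26, against 49.9%. These numbers depend on the scale: by library totals 28, 26 and 23 of 37 were below the control at the rising doses, and in TPM 30, 23 and 21. The median log2 ratio over all genes moved with the scale too, to -0.12, 0.01 and 0.04 by library totals and -0.19, 0.05 and 0.08 in TPM. The receptor median minus that of all genes was -0.08, -0.17 and -0.27 by library totals and -0.09, -0.15 and -0.22 in TPM. A gene was said to pass the 2-fold rule when its log2 ratio of CPM + 0.5 was at least 1 in size and the counting interval of its ratio excluded 1. This rule was passed by 0 of 37 members at each dose, where 4.57% of all genes passed it at the low, 5.37% at the middle and 5.41% at the high dose. These shares were smaller among the 11257 genes whose mean reached 5 CPM, a range that holds 34 of the members. There 106, 138 and 136 genes passed it above the control at the rising doses, and 87, 110 and 123 below. The median log2 ratio of the members was -0.09 at the low, -0.17 at the middle and -0.27 at the high dose, beside -0.01, 0.00 and 0.00 over all genes. The 3 comparisons share the control library, so they are not independent of each other. All 39 genes together had 3895 CPM in the control versus 3881, 3897 and 3440.0 CPM from low to high dose, and the sum at the high dose was 0.883 (0.871 to 0.896) of the control by CPM and 0.989 in TPM.

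Smaller differences were resolved by counting in many members. The counting interval lay wholly below 1 for 13 of 37 members at the low dose (15.3% of all genes), 17 at the middle (16.8%) and 15 at the high dose (18.7%). It lay wholly above 1 for 5 members at the low dose (14.3% of all genes), 4 at the middle (19.2%) and 5 at the high dose (18.7%). Deeper genes have narrower intervals, and over all genes whose mean reached 5 CPM the shares below 1 were 17.3%, 18.2% and 21.9% at the rising doses and those above 1 were 16.8%, 23.8% and 22.0%. Of the 34 members in that range, 13, 16 and 15 lay below 1 and 5, 4 and 5 above 1.

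**Figure D2:**
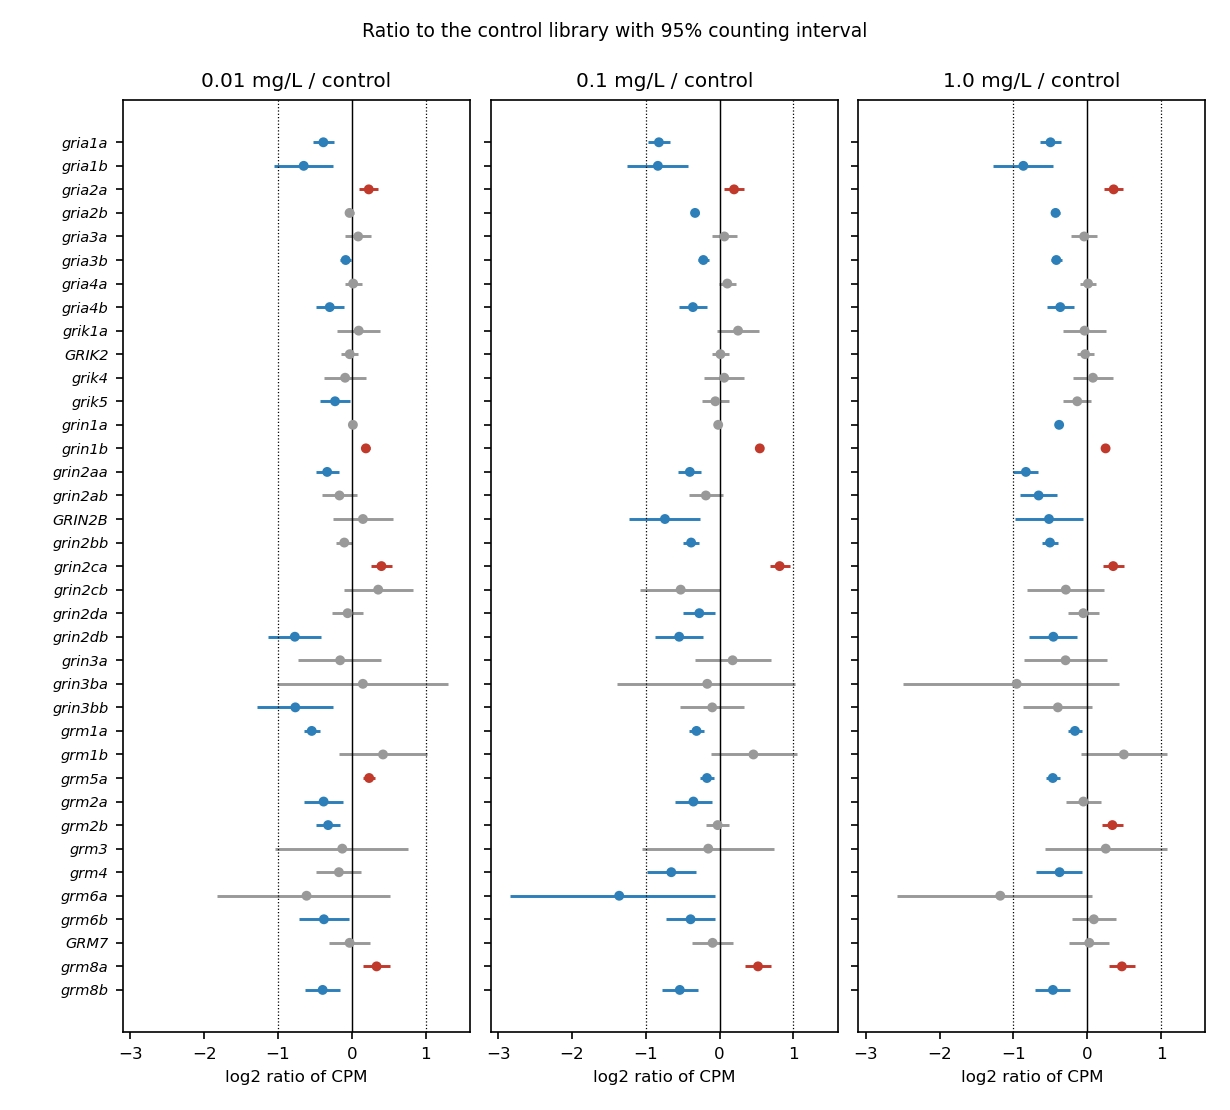
Log2 ratio of CPM to the control library for the 37 receptor genes of at least 1 CPM, 1 panel per dose, with points for the ratio and bars for its exact 95% counting interval. Blue and red mark intervals wholly below and above a ratio of 1, grey the rest, and dotted lines mark 2-fold. The blue genes number 13, 17 and 15 at the rising doses and the red ones 5, 4 and 5.

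Among the AMPA receptor genes, which code for the subunits of the main fast excitatory channel, both gria1 genes were lower than the control at every dose. The gene gria1a (ENSDARG00000021352, chromosome 14, 34125855 to 34276574 on GRCz11), whose mammalian counterpart is known for its delivery to synapses during potentiation, had 93.1 CPM in the control library, 71.2 CPM at the low dose, 52.7 CPM at the middle and 65.9 CPM at the high dose. Its ratio to the control was 0.765 (0.694 to 0.844), 0.566 (0.509 to 0.629) and 0.708 (0.641 to 0.781) at the rising doses, lowest at 0.1 mg/L. Its paralog gria1b had 13.8 CPM in the control versus 8.79, 7.74 and 7.57 CPM from low to high dose, with ratios of 0.636 (0.481 to 0.836), 0.5603 (0.421 to 0.7402) and 0.548 (0.412 to 0.725). The control was the highest of the 4 libraries for both genes, on every scaling and in TPM.

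The gria2 genes, whose mammalian counterpart sets the calcium permeability of AMPA receptors through an edited site, went apart. The more abundant gria2b had 499 CPM in the control library, 489 CPM at the low dose, 396 CPM at the middle and 370.3 CPM at the high dose. It was close to the control at the lowest dose, at a ratio of 0.979 (0.941 to 1.02), and lower at 0.1 mg/L, at 0.794 (0.763 to 0.827), and at 1.0 mg/L, at 0.742 (0.712 to 0.774). The paralog gria2a had 85.8 CPM in the control versus 101, 98.3 and 109.8 CPM from low to high dose, above the control at each dose, with ratios of 1.17 (1.07 to 1.28), 1.15 (1.05 to 1.25) and 1.28 (1.17 to 1.397). The gria3 and gria4 pairs, which code for the other two AMPA subunits, each held a gene near the control and a gene below it. The gene gria3b had 289.8 CPM in the control versus 274, 249 and 217 CPM, a ratio of 0.748 (0.708 to 0.789) at 1.0 mg/L, while gria3a had 51.7 CPM in the control versus 54.8, 54.1 and 50.2 CPM, with counting intervals that included 1 at each dose. In the other pair, gria4b had 51.8 CPM in the control versus 42.1, 40.4 and 40.2 CPM, and its ratio was 0.813 (0.714 to 0.925), 0.779 (0.684 to 0.885) and 0.776 (0.682 to 0.882). The gene gria4a had 117 CPM in the control versus 119, 126 and 118 CPM, and its largest ratio was 1.08 (0.995 to 1.16) at 0.1 mg/L.

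Summed over all 8 genes, the AMPA receptors had 1202 CPM in the control versus 1159, 1025 and 979 CPM from low to high dose. The ratio of the sum to the control was 0.964 (0.9396 to 0.988) at the low, 0.852 (0.831 to 0.874) at the middle and 0.814 (0.793 to 0.836) at the high dose. In TPM the sum had ratios of 0.901, 1.01 and 0.996, so the lower AMPA sum at 0.1 and 1.0 mg/L was not seen on that scale. The median log2 ratio over all genes was itself -0.19, 0.05 and 0.08 in TPM at the rising doses, beside -0.01, 0.00 and 0.00 by TMM. TPM gives more weight to genes counted on short transcripts, and the length that the authors' counts and RPKM imply differed between libraries for some of these genes. For gria1b this implied length was 2196 bases in the control against 1670.3, 1538 and 1824, for gria2a 2404 bases in the control against 2233, 2060.2 and 2189.6 and for gria2b 3564 bases in the control against 3353, 3434 and 3120.3. The longest was 1.43 times the shortest for gria1b, 1.17 times for gria2a and 1.14 times for gria2b, where the median gene of those with at least 5 CPM stood at 1.02. Which transcripts lie behind these lengths was not analysed here.

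The kainate receptor genes with a grik symbol stayed close to the control in CPM. Their sum, without the kainate 3 gene, was 208 CPM in the control versus 198, 211 and 202 CPM from low to high dose, with ratios of 0.955 (0.898 to 1.02), 1.01 (0.956 to 1.08) and 0.972 (0.915 to 1.03), each interval including 1. In TPM the sum had ratios of 0.799, 1.06 and 1.05. The gene GRIK2, for a subunit that forms channels on its own, had 121 CPM in the control library, 118 CPM at the low dose, 122 CPM at the middle and 118 CPM at the high dose, a range in which the highest library was 1.03 times the lowest. The gene grik1a, for another such subunit, had 18.3 CPM in the control versus 19.5, 21.7 and 17.8 CPM. The genes grik4 and grik5 code for subunits that need a partner from the grik1 to grik3 group. The first had 21.6 CPM in the control versus 20.3, 22.6 and 22.8 CPM and the second 45.6 CPM in the control versus 38.96, 43.8 and 41.5 CPM. Of these genes only grik5 at 0.01 mg/L had a counting interval that excluded 1, at 0.854 (0.745 to 0.979). The gene grik1b, under the expression filter, had 14 counts in the control against 9, 6 and 12, too few to resolve a difference.

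The obligatory NMDA receptor subunit, which binds the co-agonist glycine, is coded by grin1a and grin1b, and these genes differed from the control in opposite directions at 1.0 mg/L. The gene grin1a (ENSDARG00000027828, chromosome 21, 11468642 to 11502971) had 873 CPM in the control library, 882 CPM at the low dose, 862 CPM at the middle and 670.3 CPM at the high dose, and its ratio to the control was 1.01 (0.981 to 1.04), 0.987 (0.959 to 1.02) and 0.768 (0.744 to 0.792). The gene grin1b (ENSDARG00000025728, chromosome 5, 29597645 to 29643930) had 607 CPM in the control library, 693 CPM at the low dose, 886 CPM at the middle and 721 CPM at the high dose, with ratios of 1.14 (1.103 to 1.18), 1.46 (1.41 to 1.51) and 1.19 (1.15 to 1.23). At 0.1 mg/L grin1b was the highest of the 4 libraries while the grin1a interval included 1. Together the pair had 1480.3 CPM in the control versus 1575, 1748 and 1391 CPM from low to high dose.

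The grin2 genes code for the glutamate-binding subunits that set the kinetics of NMDA receptors. In rodents, grin2b prevails early in development and grin2a later, and grin2c is typical of cerebellar granule cells. Both grin2a genes were lowest at 1.0 mg/L. The gene grin2aa (ENSDARG00000034493, chromosome 3, 27071749 to 27277695) had 74.7 CPM in the control library, 59.3 CPM at the low dose, 56.5 CPM at the middle and 41.99 CPM at the high dose, at ratios of 0.793 (0.712 to 0.884), 0.756 (0.679 to 0.842) and 0.562 (0.499 to 0.632). Its paralog grin2ab had 30.9 CPM in the control versus 27.5, 27.2 and 19.6 CPM from low to high dose, at 0.633 (0.529 to 0.756) for the highest dose, with intervals that included 1 at the lower ones. The gene grin2bb had 145 CPM in the control versus 135, 111 and 102 CPM, at ratios of 0.932 (0.865 to 1.003), 0.766 (0.709 to 0.827) and 0.704 (0.651 to 0.762). A shorter gene model with the symbol GRIN2B, which spans 13.4 kb where grin2bb spans 181 kb, had 9.44 CPM in the control versus 10.5, 5.65 and 6.59 CPM, at 0.599 (0.426 to 0.834) for 0.1 mg/L and 0.698 (0.506 to 0.956) for 1.0 mg/L.

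Among the grin2 genes, grin2ca (ENSDARG00000078149, chromosome 3, 19005187 to 19133003) was the only 1 above the control at every dose, on each scaling and in TPM. It had 66.6 CPM in the control library, 87.97 CPM at the low dose, 117 CPM at the middle and 84.96 CPM at the high dose, with ratios of 1.32 (1.19 to 1.46), 1.76 (1.603 to 1.93) and 1.28 (1.15 to 1.41). Its level at 0.1 mg/L was the highest of all 4 libraries. The paralog grin2cb had 6.86 CPM in the control versus 8.79, 4.76 and 5.61 CPM from low to high dose, with a counting interval that included 1 at every dose. Markers of cerebellar granule and Purkinje cells, with 15 of 16 symbols in the table, also stood above the control in their sum, which was 4761 CPM in the control versus 5471, 6121 and 6676 CPM, with gabra6a at 0 counts in the control. The median log2 ratio of the 14 kept markers was 0.08, 0.14 and 0.46. The markers of this list past the 2-fold rule went the other way, aldoca at a ratio of 0.474 for 0.01 mg/L and rorb at 0.247 for 0.1 mg/L and 0.286 for 1.0 mg/L. The sum was highest at 1.0 mg/L and grin2ca at 0.1 mg/L, and the part of these cells in the grin2ca values was not tested.

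The remaining NMDA genes had means over the 4 libraries from 1.17 CPM (grin3ba) to 34.1 CPM (grin2da). The gene grin2da had 36.3 CPM in the control versus 34.9, 30.1 and 35.01 CPM from low to high dose, and grin2db 18.3 CPM in the control versus 10.7, 12.5 and 13.3 CPM, the latter at 0.586 (0.457 to 0.747), 0.684 (0.544 to 0.858) and 0.727 (0.581 to 0.908) of the control. The grin3 subunits bind glycine and, in mammals, lower the calcium permeability of the receptor. The gene grin3a had 5.79 CPM in the control versus 5.19, 6.55 and 4.72 CPM and grin3bb 8.82 CPM in the control versus 5.19, 8.23 and 6.69 CPM, of which only grin3bb at 0.01 mg/L was resolved from the control, at 0.588 (0.409 to 0.837). With 15 counts in the control against 14, 12 and 7, grin3ba was too shallow for a comparison.

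As a share of grin2 transcripts, grin2c made up more and grin2a less of the total in every exposed library than in the control. Of the summed grin2 TPM, grin2c held 32.1% in the control against 41.7%, 50.8% and 45.9% from low to high dose. The share of grin2a was 22.3% in the control against 18.1%, 17.05% and 15.2%, that of grin2b 32.4% in the control against 30.4%, 22.9% and 26.2%, and that of grin2d 13.2% in the control against 9.79%, 9.33% and 12.7%. In counts, which do not correct for length, grin2c held 18.9% (17.8 to 20.1%) of grin2 counts in the control, 25.8% (24.4 to 27.3%) at the low, 33.4% (31.9 to 34.9%) at the middle and 29.3% (27.7 to 30.9%) at the high dose. These shares are taken within a library and so do not depend on how the libraries were scaled. Summed over 13 genes, the NMDA receptors had 1885 CPM in the control versus 1962, 2129 and 1712 CPM, at ratios of 1.04 (1.02 to 1.06), 1.13 (1.11 to 1.15) and 0.909 (0.891 to 0.927). The sum was above the control at 0.1 mg/L and below it at 1.0 mg/L on every scaling tried, while at 0.01 mg/L it was above the control under TMM and DESeq2 scaling and below it by library totals and in TPM. Without the grin1 pair, the other NMDA genes had 404 CPM in the control versus 387, 381 and 321 CPM, at 0.795 (0.7597 to 0.832) for 1.0 mg/L.

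**Figure D3:**
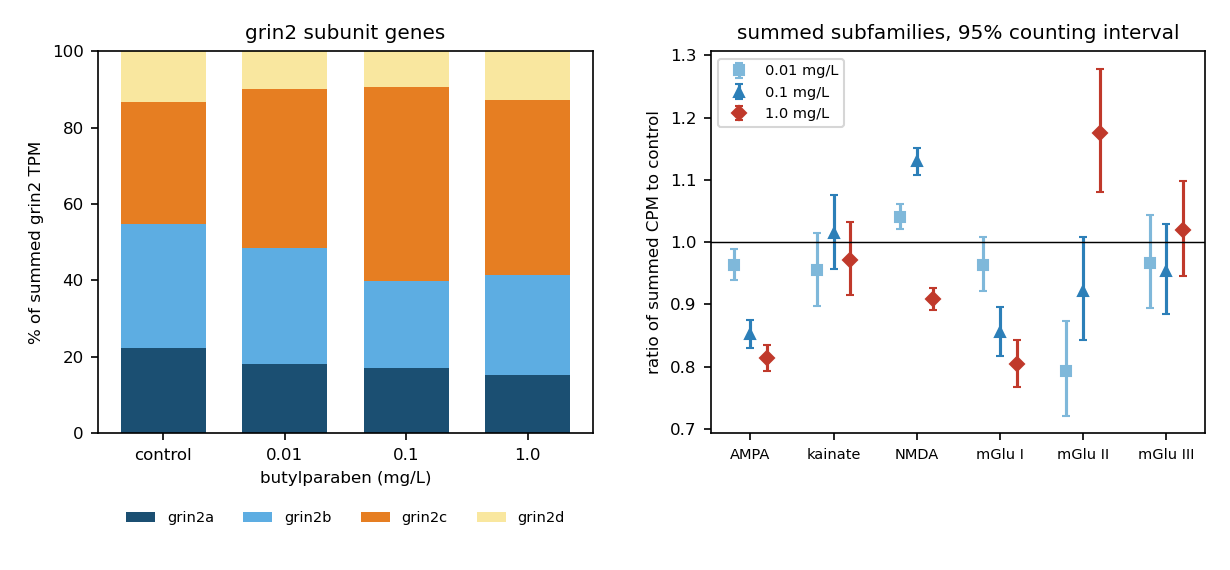
Left, share of the summed grin2 TPM held by the grin2a, grin2b, grin2c and grin2d genes in each library. Right, ratio of each subfamily's summed CPM to the control library, with exact 95% counting intervals. The grin2c share is 32.1% in the control and 50.8% at 0.1 mg/L, and the AMPA sum is at 0.814 of the control at 1.0 mg/L.

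In both metabotropic group I pairs, whose receptors raise calcium from internal stores, the a paralog held most of the counts. The gene grm5a (ENSDARG00000004445, chromosome 10, 25219728 to 25272236) had 206 CPM in the control library, 242 CPM at the low dose, 183 CPM at the middle and 149 CPM at the high dose. It was thus above the control at the lowest dose, at a ratio of 1.18 (1.11 to 1.25), and below it at the others, at 0.888 (0.835 to 0.945) and 0.723 (0.677 to 0.772). The gene grm1a, whose mammalian counterpart is a receptor of Purkinje cells, had 161 CPM in the control library, 111 CPM at the low dose, 129.8 CPM at the middle and 144 CPM at the high dose. Its lowest library was at 0.01 mg/L, at 0.686 (0.635 to 0.741), with 0.805 (0.749 to 0.865) and 0.891 (0.831 to 0.955) at the higher doses, so the lowest libraries of grm1a and grm5a were different ones. The minor paralog grm1b had 4.19 CPM in the control versus 5.61, 5.75 and 5.9 CPM from low to high dose, with intervals that included 1. The gene grm5b, under the expression filter, had 15 counts in the control against 7, 3 and 11, a ratio of 0.223 (0.0413 to 0.787) at 0.1 mg/L from very few counts. The group I sum was 373 CPM in the control versus 359, 319 and 299 CPM, at ratios of 0.964 (0.921 to 1.01), 0.855 (0.817 to 0.896) and 0.804 (0.767 to 0.842).

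Group II receptors dampen transmitter release. The gene grm2b had 65.7 CPM in the control library, 52.6 CPM at the low dose, 64.6 CPM at the middle and 83.2 CPM at the high dose, below the control at 0.01 mg/L, at 0.8004 (0.713 to 0.898), and above it at 1.0 mg/L, at 1.27 (1.15 to 1.399). Its paralog grm2a had 28.1 CPM in the control versus 21.6, 22.02 and 27.1 CPM from low to high dose, at 0.767 (0.6402 to 0.918) and 0.782 (0.656 to 0.932) for the lower doses and 0.964 (0.817 to 1.14) for the highest. The low-level grm3 stayed between 2.08 and 2.75 CPM. The group II sum was 96.2 CPM in the control versus 76.3, 88.7 and 113 CPM, at ratios of 0.793 (0.721 to 0.873), 0.922 (0.843 to 1.01) and 1.18 (1.08 to 1.28), and it kept its sign at each dose under every scaling.

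Group III receptors also act at presynaptic terminals, apart from that of grm6, which is known from the ON bipolar cells of the retina. The gene grm8a (ENSDARG00000077654, chromosome 4, 3478049 to 3745093) had 40.4 CPM in the control library, 51.03 CPM at the low dose, 58.02 CPM at the middle and 55.95 CPM at the high dose, above the control at each dose, with ratios of 1.26 (1.11 to 1.44), 1.43 (1.27 to 1.63) and 1.38 (1.22 to 1.57). Its paralog grm8b was below the control at each dose, with 33.1 CPM in the control versus 25.2, 22.8 and 23.99 CPM from low to high dose and ratios of 0.7604 (0.643 to 0.897), 0.688 (0.581 to 0.814) and 0.724 (0.614 to 0.853). The gene GRM7 had 20.8 CPM in the control versus 20.3, 19.4 and 21.1 CPM, with intervals that included 1. The gene grm4 had 18.9 CPM in the control versus 16.7, 12 and 14.6 CPM, at 0.635 (0.504 to 0.798) and 0.771 (0.6205 to 0.955) for the higher doses. The gene grm6b had 16.9 CPM in the control versus 13.02, 12.9 and 18 CPM, lower at 0.769 (0.608 to 0.9704) and 0.762 (0.605 to 0.957) for the lower doses and near the control at 1.06 (0.863 to 1.31) for the highest. Its paralog grm6a had 20 counts in the control against 11, 7 and 8. Retinal and pineal markers summed to 150.4 CPM in the control versus 138, 130.0 and 192 CPM, a sum that hides opposite directions. At 1.0 mg/L the photoreceptor and pineal genes gnat1, gngt1, asmt, aanat2 and exorh passed the 2-fold rule above the control, at ratios of 32.3, 14.6, 6.44, 5.52 and 2.32. The bipolar cell gene cabp5b passed it below, at 0.299. At 0.1 mg/L exorh and gngt1 passed it below the control instead, at 0.388 and 0.159, and grk1b above, at 10.02. At 0.01 mg/L 0 genes of the list passed. Of the 24 genes of the list, 1, 8, 5 and 3 were at 0 counts in the control and at the rising doses, among them the opsin gene opn1lw1 in all exposed libraries and the bipolar cell gene vsx1 at 0.01 and 1.0 mg/L. Their part in the grm6b values was not tested. The group III sum was 132 CPM in the control versus 127, 126 and 134 CPM, and each interval of its ratio to the control included 1.

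Within several paralog pairs the balance between the genes differed between libraries by more than counting error. The gene grin1a held 58.99% (58.2 to 59.7%) of the pair's counts in the control, 56.01% (55.2 to 56.8%) at the low, 49.3% (48.6 to 50.1%) at the middle and 48.2% (47.4 to 49.01%) at the high dose. The interval at 0.1 mg/L overlaps that at 1.0 mg/L, and both lie below the interval at 0.01 mg/L, which lies below that of the control. The gene gria2a held 14.7% (13.8 to 15.5%), 17.1% (16.1 to 18.1%), 19.9% (18.8 to 21%) and 22.9% (21.7 to 24.1%) of the gria2 counts in the same order, with no overlap between neighbours. The share of grm8a was 54.96% (51.5 to 58.4%) in the control, and 66.9% (63.4 to 70.4%), 71.8% (68.6 to 74.8%) and 69.99% (66.7 to 73.1%) at the rising doses, where the exposed libraries overlap one another and none overlaps the control.

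The same shares in TPM were 64.9% in the control against 61.8%, 55.05% and 54.2% from low to high dose for grin1a, 20.3% in the control against 23.6%, 29.2% and 29.7% for gria2a, and 65.8% in the control against 75.4%, 79.5% and 78.04% for grm8a. In the grin2d pair grin2da held 66.6% (62.7 to 70.3%) of counts in the control and 76.6% (72.3 to 80.5%) at 0.01 mg/L, with no overlap, and 70.6% (66.1 to 74.9%) and 72.5% (68.3 to 76.4%) at the higher doses, which overlap the control. Its TPM share was 47.4% in the control against 60.3%, 52.4% and 54.3%. In the gria4 pair gria4a held 69.4% (67.3 to 71.5%) of counts in the control and 75.8% (73.7 to 77.8%) at 0.1 mg/L, and in the gria3 pair gria3a held 15.1% (14.01 to 16.3%) in the control and 18.8% (17.3 to 20.3%) at 1.0 mg/L. In TPM these shares were 84.4% and 88.2% for gria4a and 48.9% and 58.1% for gria3a. Which gria3 gene held more at 1.0 mg/L thus depends on the unit. The gria1 and grin2a pairs kept overlapping intervals in all libraries, with gria1a at 87.1% (85.1 to 88.9%) and grin2aa at 70.7% (68.1 to 73.3%) in the control. The authors' counting shares reads among similar transcripts, so part of a pair's counts may be split between its genes with error that these intervals do not hold.

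**Figure D4:**
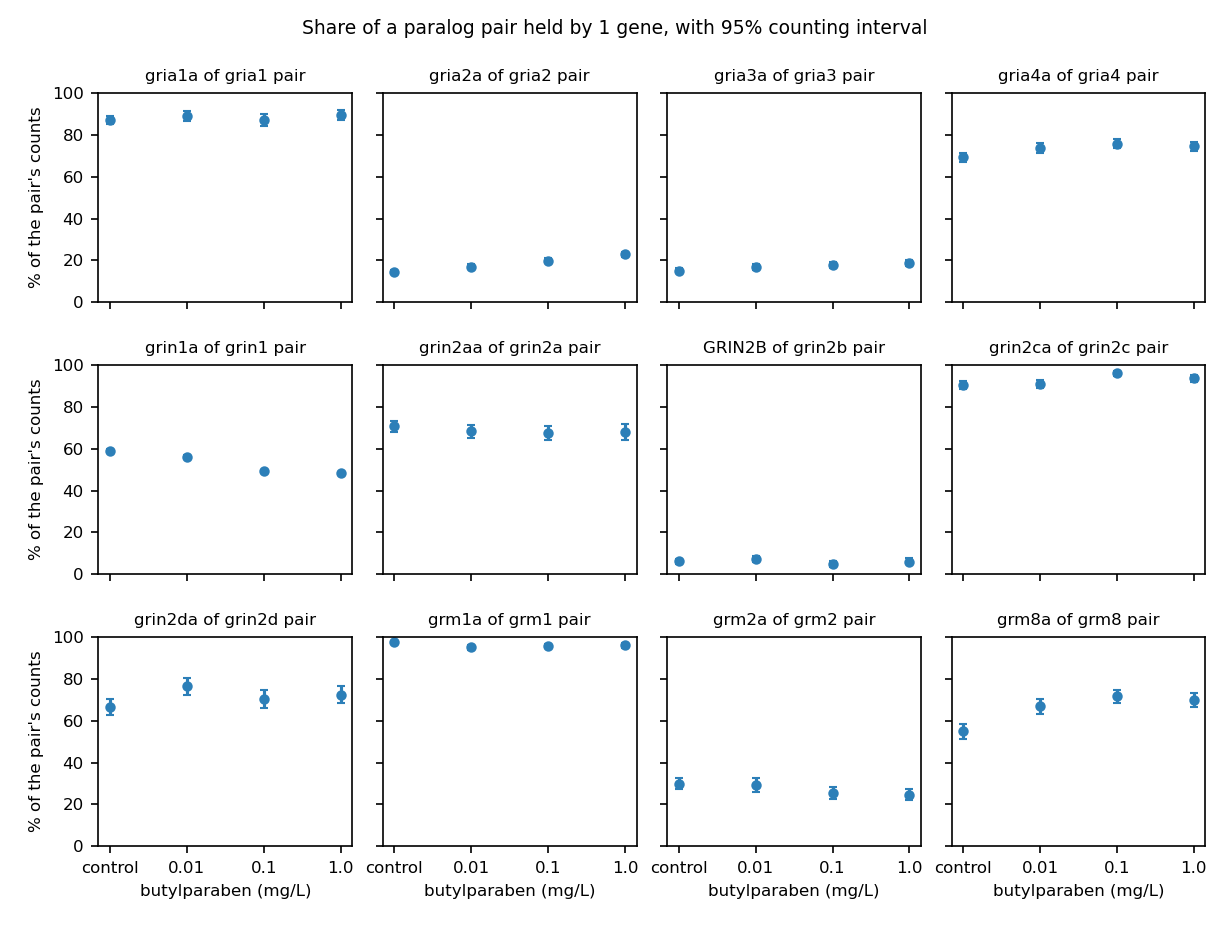
Percent of a paralog pair's counts held by the named gene in each library, for the 12 pairs in which both genes had a mean of at least 5 CPM (GRIN2B with grin2bb counted among them), with exact 95% counting intervals. The share of grin1a goes from 59.0% in the control to 48.2% at 1.0 mg/L and that of gria2a from 14.7% to 22.9%, while gria1a stays between 87.1% and 89.7%.

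Some members of different subfamilies lie close together on the zebrafish chromosomes. The genes grm5a and grik1a are 130 kb apart on chromosome 10, and the paralogs grm5b and grik1b are 976 kb apart on chromosome 15, where gria4a is a further neighbour at 730 kb from grm5b. In each pair the copy on chromosome 10 held nearly all counts: grm5a 99.4% (98.9 to 99.6%) and grik1a 93.6% (89.5 to 96.5%) in the control. Within the AMPA genes, gria1a and gria2b are 1472 kb apart on chromosome 14. Both were lower than the control at 0.1 and 1.0 mg/L, where 26 of 37 members were below it at each dose. The closer genes grm5a and grik1a had ratios of 0.723 and 0.975 at 1.0 mg/L, the latter with an interval that included 1. Whether position goes with direction was not tested. Positions are from the authors' table, on GRCz11.

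Ordered by dose, 7 of 37 members had a lower CPM at each step from the control to 1.0 mg/L, where 5.82% of all genes did, and 1, grm1b, had a higher CPM at each step, where 6.09% did. The 7 were gria1b, gria2b, gria3b, gria4b, grin2aa, grin2ab and grin2bb. The order takes no account of counting error, and some steps lay within it. At 1.0 against 0.1 mg/L the ratio was 0.996 (0.867 to 1.146) for gria4b and 0.979 (0.705 to 1.359) for gria1b. For grm1b the interval of every step included 1. Scaling by library totals left 3 of the 7 falling genes, gria2b, gria3b and grin2bb, and TPM left grin2bb and added grin3ba, so the number of ordered genes depends on the scale. The share of all genes that fell at each step was smaller there too, 3.18% by library totals and 2.08% in TPM. Rising members numbered 2 by library totals, where 6.97% of all genes rose, and 1 in TPM, where 6.28% did. For grin2bb the falling order held on each scale. Its first and last steps had intervals that included 1, at 0.932 (0.865 to 1.003) for 0.01 mg/L against the control and 0.920 (0.845 to 1.002) for 1.0 against 0.1 mg/L.

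Between exposed libraries the control with its egg coat signal takes no part. Under TMM scaling, the medians of the receptor genes were nearer to 0 there than against the control, and fewer counting intervals excluded 1. The 2-fold rule was passed by 0 of 37 members at 0.1 against 0.01 mg/L, at 1.0 against 0.01 mg/L and at 1.0 against 0.1 mg/L, where 3.38%, 3.42% and 3.24% of all genes passed it. Of the 11257 genes whose mean reached 5 CPM, 84, 69 and 71 passed it upward in that order and 65, 68 and 60 downward. The median log2 ratios of the members were -0.02, -0.07 and -0.03 in the same order, beside 0.02, 0.02 and -0.01 over all genes. The sign of the members' medians depends on the scale: library totals gave 0.09, 0.09 and 0.00, and TPM 0.21, 0.23 and -0.01. The medians over all genes moved too, to 0.14, 0.17 and 0.02 by library totals and 0.24, 0.27 and 0.02 in TPM. By TMM, library totals and TPM alike, the receptor median lay below that of all genes in each comparison. In TPM the receptor medians against the control were -0.28, -0.10 and -0.14 at the rising doses, so those between doses were not all nearer to 0 on that scale. At 0.1 against 0.01 mg/L the counting interval lay below 1 for 8 members (11.8% of all genes) and above it for 6 (16.3%). At 1.0 against 0.01 mg/L the counts were 9 below (14.8%) and 6 above (14.9%), and at 1.0 against 0.1 mg/L 8 below (16.5%) and 6 above (12.4%).

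Some members differed between doses by more than counting error. The gene grm5a at 1.0 mg/L was 0.615 (0.576 to 0.656) of its level at 0.01 mg/L, and grin1a was 0.76 (0.736 to 0.785). The gene grin2aa was 0.708 (0.623 to 0.805) and gria2b 0.758 (0.726 to 0.792) of the level at 0.01 mg/L, while gria1a, low at every dose, was 0.925 (0.8297 to 1.03). In the other direction grm2b at 1.0 mg/L was 1.58 (1.41 to 1.77) and grm1a 1.298 (1.198 to 1.41) of the level at 0.01 mg/L. The gene grin2ca was 1.33 (1.22 to 1.46) at 0.1 against 0.01 mg/L and 0.725 (0.664 to 0.793) at 1.0 against 0.1 mg/L. Its highest value was thus in the 1 library at 0.1 mg/L.

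Other genes of glutamatergic synapses were followed by lists of receptor partners, transporters and enzymes. Over all genes, 4.57%, 5.37% and 5.41% passed the 2-fold rule against the control at the rising doses. The counts of list genes past the rule were not tested against these shares. Of 19 measured auxiliary subunits of AMPA and kainate receptors, 1 passed the 2-fold rule, gsg1l at 1.0 mg/L, which codes for a subunit that modulates AMPA channels. It had 36.5 CPM in the control versus 22.5, 20.9 and 17.7 CPM from low to high dose, at 0.485 (0.404 to 0.579) for the highest dose, and the medians of the list were -0.07, -0.11 and -0.06. Of 9 delta receptor and cerebellin genes, which organise synapses, 1 passed at each dose, the cerebellin gene cbln2a, with 16.9 CPM in the control versus 3.18, 2.98 and 4.72 CPM. Of 28 postsynaptic scaffold genes, dlgap1a, a partner of the PSD-95 family, was lower at 0.1 mg/L, with 3.56 CPM in the control versus 4.34, 1.29 and 1.97 CPM, and dlgap1b was higher at 1.0 mg/L, with 1.25 CPM in the control versus 1.69, 1.69 and 3.25 CPM. The scaffold medians were 0.02, -0.26 and -0.12, and homer3b, whose family ties group I receptors to calcium stores, and dlg2, of the PSD-95 family, had ratios of 0.5302 (0.371 to 0.749) at 0.1 mg/L and 0.589 (0.406 to 0.845) at 1.0 mg/L.

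The next list joined genes of calcium/calmodulin kinase II, a target of NMDA receptor calcium, with genes of its inhibitors, such as camk2n1a. It had 0 of 9 genes past the rule, with medians of 0.02, -0.17 and -0.24 over both kinds. The kinase gene camk2a had 55.4 CPM in the control versus 73.05, 29.1 and 32.2 CPM from low to high dose, so its level was above the control at the lowest dose only. The inhibitor gene camk2n1a had 368 CPM in the control versus 265, 251 and 296 CPM. Of 8 measured glutamate transporters, slc1a6, a neuronal uptake carrier, was past the rule at 0.1 mg/L, with 2.67 CPM in the control versus 1.59, 0.793 and 2.66 CPM, and slc1a3b, a glial one, at 1.0 mg/L, with 8.19 CPM in the control versus 7.52, 4.66 and 17.01 CPM. The glial carrier slc1a2b had 804 CPM in the control versus 545, 596 and 635 CPM, and the vesicular transporter slc17a6a 13.5 CPM in the control versus 10.2, 7.24 and 7.57 CPM. The transporter medians were -0.19, -0.28 and -0.10.

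Among 10 synthesis and recycling enzymes, got2a, a mitochondrial aminotransferase, passed the rule at 1.0 mg/L, with 42.2 CPM in the control versus 40.1, 33.2 and 20.7 CPM from low to high dose, and glula, glutamine synthetase, had 819 CPM in the control versus 576, 555 and 659.8 CPM. The list had medians of -0.08, -0.13 and -0.15. Genes that make, move or break down glycine or D-serine, the NMDA co-agonists, included some above the control and some below it. Whether they act at NMDA receptors was not analysed here. The carrier slc7a10a, whose mammalian counterpart moves D-serine and glycine, had 14.2 CPM in the control versus 21.8, 32.1 and 21.8 CPM and passed the rule at 0.1 mg/L, as did the glycine transporter gene slc6a5, with 9.798 CPM in the control versus 9.21, 21.1 and 14.3 CPM. The D-amino acid oxidase gene dao.2 passed it at 0.01 and 1.0 mg/L from low levels, with 0.713 CPM in the control versus 2.01, 1.29 and 2.26 CPM. The 7 measured genes of that list had medians of -0.08, -0.30 and 0.31, with 4, 4 and 3 of them below the control at the rising doses. Of 3 measured adenosine deaminases acting on RNA, enzymes that edit receptor transcripts in mammals, none passed. The largest ratios were in adarb1a at 0.01 mg/L, with 60.4 CPM in the control versus 46.9, 59.01 and 47.01 CPM, and in adar at the higher doses, with 46.8 CPM in the control versus 59.4, 59.7 and 65.6 CPM.

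As a comparison with the receptors of inhibitory transmitters, 24 of 30 GABA and glycine receptor subunit genes had at least 1 CPM. Their medians were -0.26, -0.28 and -0.30 at the rising doses, with 2, 2 and 3 genes past the 2-fold rule, where the glutamate receptor genes had 0. Over all genes 4.57%, 5.37% and 5.41% passed it. The difference between the receptor sets was not tested. Marker lists of other cells also differed between libraries. Telencephalic excitatory neuron markers summed to 289 CPM in the control versus 267, 252 and 274 CPM from low to high dose over 13 genes, none at 0. Within that list foxg1a passed the 2-fold rule below the control, at ratios of 0.387 for 0.1 mg/L and 0.192 for 1.0 mg/L. The same held for tbr1b at 0.346 for 1.0 mg/L. The medians of the list's 10 kept genes were -0.27, -0.41 and -0.32. At 1.0 mg/L 7 of the 10 were below the control and 3 above it, each of the 3 with an interval wholly above 1. Astroglia markers summed to 3907 CPM in the control versus 3072, 3138 and 3420.4 CPM over 13 genes, with aqp4 at 0 counts in each exposed library and slc1a3b past the rule above the control at 1.0 mg/L. Oligodendrocyte markers summed to 10621 CPM in the control versus 16406, 13221 and 11843 CPM over 11 genes. Their medians were 0.04, 0.08 and -0.11, and at 1.0 mg/L 7 of the 11 were below the control, against the direction of the sum. Blood cell markers summed to 677 CPM in the control versus 719.7, 633 and 496 CPM. Microglia markers summed to 456 CPM in the control versus 519, 534 and 474 CPM, with medians of 0.20, 0.21 and -0.05. Of these, lcp1 passed the rule above the control at 0.01 mg/L and ctss2.1 below it at each dose. The part of all these cells in the receptor values was not tested.

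In the authors' deposited table, which gives a log2 fold change, a p-value and a q-value per dose by a test not given in the sources used here, no member had a q-value under 0.577. That table marks 1 member as changed, grm5b at 0.1 mg/L, at that q-value and from 15 counts in the control against 3. The share of all genes so marked is not given here. The lowest p-values of the deposited table among the members were 0.0277 for grm5b at 0.1 mg/L, with a log2 fold change of -2.17, and 0.0336 for grin2db at 0.01 mg/L, with -0.77. In the same authors' deposited table gria1a and grin2ca at 0.1 mg/L had p-values of 0.0368 each, with log2 fold changes of -0.82 and 0.81, and grin2aa at 1.0 mg/L had 0.0390, with -0.83. With 1 library per group, these p-values cannot rest on a spread between fish.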

How the data were processed

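Brain RNA of 4 zebrafish groups was sequenced, 1 library each. Libraries were stranded and for mRNA, with paired ends of 151 bp, per the labels' protocols. Per the submitters' processing notes, the authors used RSEM 1.3.1, STAR 2.7.1a and cutadapt 2.8, and the genome build was GRCz11. Per the file headers, the authors deposited an estimated count (expected count), an RPKM and a TPM value per gene and library. The same deposited table holds the authors' log2 fold changes with p-values and q-values, whose test is not given in the sources used here. Every deposited count is whole, while 141 entries with a count of 0 have an RPKM above 0, so the counts were used as rounded RSEM estimates.

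Counts were scaled with TMM factors (edgeR 4.0.16 in R 4.3.3) of 1.01, 0.931, 1.02 and 1.04 in order of dose. The 16524 genes whose mean reached 1 CPM were kept. Log2 ratios used a pseudocount of 0.5 CPM, which understates differences of low genes, and plain ratios are of CPM without it. With 1 library per group no test was made. Levels of different genes were compared in TPM, and effective lengths were taken from counts, library totals and RPKM. The rest was done in Python 3.11.15 (scipy 1.17.1, pandas 2.3.3, numpy 2.4.6, matplotlib 3.10.9).

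Values in every library are printed for members with a mean of at least 5 CPM, and from each partner list for genes past the 2-fold rule and, among those of at least 5 CPM, the gene with the log2 ratio furthest from 0 at each dose. The members, the 8 partner lists and the 9 marker lists were chosen with earlier results of these data known. Alternatives were DESeq2 1.42.0 size factors, library totals, TMM without mitochondrial, egg coat and oocyte genes, a filter of 1 count in all, a filter of 5 CPM, pseudocounts of 0.1 and 2 CPM, and the authors' TPM. No receptor sequences were analysed here.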

Additional observations from a re-analysis of the deposited data

How the results depend on the processing

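The median log2 ratio of the receptor genes kept its sign against the control at each dose under all 8 alternative settings, and 0 members past the 2-fold rule was found in every setting except the ones named here. At 0.1 mg/L the rule was passed by 1 member with no filter beyond 1 count, grm5b, and by 1 with a pseudocount of 0.1 CPM, grm6a; the lower filter and the smaller addition let genes of few counts through. For 1.0 against 0.01 mg/L the median of -0.07 came to 0.23 in TPM, where the median over all genes was 0.27. For 0.1 against 0.01 mg/L the receptor median went from -0.02 to 0.09 by library totals and 0.21 in TPM, with 22 of 37 members below turning to 13 and 9. The median over all genes went from 0.02 to 0.14 and 0.24 on the same scales. The receptor median minus that of all genes was -0.04 by TMM, -0.04 by library totals and -0.03 in TPM. At 0.01 mg/L against the control, library totals put the median of all genes at -0.12 and TPM at -0.19, so differences at this dose are best read against that shift: the receptor median was 0.08 below the median of all genes by TMM and 0.09 below it in TPM. Over all genes, 358 passed the rule above and 397 below the control there by TMM, 261 and 505 by library totals, and 162 and 431 in TPM. At 0.1 and 1.0 mg/L against the control, TPM put the median of all genes at 0.05 and 0.08 and that of the receptor genes at -0.10 and -0.14. No paired analysis was possible because each group holds 1 library. The depth limits members under about 5 CPM, whose intervals span more than 2-fold, and nothing here measures variation between fish.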
